A study of Mus musculus with 9 samples.

Results

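Gluconeogenesis is the synthesis of glucose from lactate, glycerol and amino acids, and in the fasted animal it takes place mainly in hepatocytes. Here 10 mouse genes of the pathway were followed across 3 kinds of liver sample: Pck1, G6pc, Slc37a4, Fbp1, Pcx, Sds, Mdh1, Mdh2, Gpt and Ppargc1a. They were chosen by name, as every probe of the deposited scanner table whose gene symbol was one of these 10, among 30789 distinct symbols and 45281 probes. The rule found 14 probes, and Gpt was added through its RefSeq accession because the table lists it under the older symbol Gpt1, which gave 15 probes of 10 genes.

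The samples were mouse liver fixed on a glass slide, and the RNA was hybridised in 1 colour, Cy3, to Illumina bead arrays. PV (3 arrays) was the glutamine synthetase subcompartment of the hepatic acinus, collected by laser capture microdissection, that is, the hepatocytes next to the central vein. NPV (3 arrays) was zones 1+2 of the acinus, collected in the same way, and SC (3 arrays) was a scrape of the whole tissue on the slide. No treatment or genotype separates the groups. The sources used here do not give the strain, sex, age or feeding state of the mice, the number of animals, or how the PV cells were recognised on the slide. Each sample carries a number (1, 2 or 3) in its label, and the labels do not say what the number stands for. In bulk samples such as these, fewer cells of a type and less RNA per cell cannot be told apart.

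Glucose is made by running glycolysis backwards, with separate enzymes where a glycolytic step cannot be reversed. Pyruvate carboxylase (Pcx) makes oxaloacetate in the mitochondrion, the malate dehydrogenases Mdh2 (mitochondrial) and Mdh1 (cytosolic) move it to the cytosol as malate, and Pck1 turns it into phosphoenolpyruvate. Further up, Fbp1 removes a phosphate from fructose 1,6-bisphosphate, the transporter Slc37a4 carries glucose 6-phosphate into the endoplasmic reticulum, and G6pc releases free glucose there. Sds (serine dehydratase) and Gpt (alanine transaminase) bring amino acid carbon in as pyruvate, and the coactivator Ppargc1a raises transcription of Pck1 and G6pc in fasting. In rodent liver the pathway is known to be stronger in periportal than in perivenous hepatocytes.

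Of the 15 probes, 14 were detected on 9 of 9 arrays (deposited detection p under 0.05) and covered all 10 genes. The other probe of Pcx was detected on 0 of 9 arrays, at log2 levels from 4.40 to 4.55, and is not used further. Levels are given as log2 of the background-corrected, quantile-normalized intensity, on which the brightest probe of any gene stood at 16.03 and the lowest detected level lay between 5.05 and 5.27. Levels of different probes are not comparable with each other, and where a gene had several probes they were numbered by brightness. The largest member level was 13.35 (Gpt), below the top of the scale.

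The promoters of 4 genes are shown. Pck1, Slc37a4 and Ppargc1a read lower on the arrays numbered 3 than on the others in each kind of sample, as given further down, and G6pc is set beside them because it is, with Pck1, a textbook hormone-controlled gene of the pathway. On number 3 G6pc also lay below the mean of numbers 1 and 2, by -0.25 in PV, -0.60 in NPV and -1.26 in SC, so it is not an unchanged comparison. Each is the 250 bases before the gene's first listed start in RefSeq (GRCm38.p6), read 5′ to 3′ on the gene's strand, and capitals mark the half-site of the cyclic AMP response element, TGACG or its reverse complement CGTCA. They lie at chr2:173152823-173153072 on the + strand (Pck1), chr9:44396696-44396945 on the + strand (Slc37a4), chr5:51567726-51567975 on the - strand (Ppargc1a) and chr11:101367466-101367715 on the + strand (G6pc).
Pck1: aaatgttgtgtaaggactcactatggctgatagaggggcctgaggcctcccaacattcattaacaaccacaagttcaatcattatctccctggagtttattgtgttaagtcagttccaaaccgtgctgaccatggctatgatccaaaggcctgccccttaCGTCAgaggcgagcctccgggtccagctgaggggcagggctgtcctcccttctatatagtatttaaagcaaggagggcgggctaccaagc
Slc37a4: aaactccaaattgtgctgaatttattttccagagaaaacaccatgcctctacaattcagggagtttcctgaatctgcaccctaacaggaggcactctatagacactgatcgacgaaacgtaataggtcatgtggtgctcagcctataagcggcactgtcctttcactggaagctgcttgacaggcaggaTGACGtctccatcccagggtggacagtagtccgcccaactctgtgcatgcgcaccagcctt
Ppargc1a: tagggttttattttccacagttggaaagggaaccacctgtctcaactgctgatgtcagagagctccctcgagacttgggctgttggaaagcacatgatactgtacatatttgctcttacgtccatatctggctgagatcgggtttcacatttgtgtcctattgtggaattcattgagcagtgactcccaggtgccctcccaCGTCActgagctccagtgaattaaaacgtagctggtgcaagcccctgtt
G6pc: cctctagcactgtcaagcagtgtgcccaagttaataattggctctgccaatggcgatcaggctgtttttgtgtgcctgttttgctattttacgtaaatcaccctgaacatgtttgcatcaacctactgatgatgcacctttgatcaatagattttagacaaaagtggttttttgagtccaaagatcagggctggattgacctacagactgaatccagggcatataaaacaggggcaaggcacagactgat
The half-site began 90 bases before the start in Pck1, 61 in Slc37a4 and 49 in Ppargc1a, and these letters were not found in the G6pc window. Only exact matches were sought, so a variant form of the element would not be marked in any window. RefSeq windows were matched for 8 of the 10 genes (11 windows, since some genes have several starts). Of these, 5 windows of 4 genes held the half-site on either strand, the fourth gene being Mdh2. Slc37a4 has 3 windows, and its first and second overlap and share the TGACG marked above. The 5 windows are therefore not 5 independent matches. The second Slc37a4 window also holds a CGTCA, and the third holds neither form. Of 32851 mouse windows of the same length, 17.8% held the half-site. The forkhead motif TGTTTAC, or GTAAACA on the other strand, was found in 0 of the 11 windows and in 3.17% of all windows. In Mdh2, whose window is not shown, the matches on the 2 strands overlap each other. Its level on number 3 was not lower, with a mean difference of 0.19 from numbers 1 and 2. A relation between the half-site and the arrays numbered 3 was not tested. The motifs were chosen with the array values known, and a match is only a description of these letters.

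Glul, which encodes glutamine synthetase, stood at 13.73, 12.81 and 12.88 on the PV arrays, at 11.09, 10.94 and 10.48 on NPV and at 11.58, 11.70 and 11.44 on SC (numbers 1, 2 and 3 in turn). PV lay above both other groups without overlap, by 2.31 on the log2 scale over NPV (SE 0.27, limma adjusted p = 0.0856, or 0.00176 with the replicate block described next). Of 11 perivenous marker genes 10 were higher in PV than in NPV, 2 of them past the adjusted limma test (Rdh9 and Sp5) and 9 with the block, and Cyp2e1, at 15.85 to 16.03 near the top of the scale, was the exception. Hepatocyte genes such as Ttr and Apoa1 had a nearly equal summed level in all groups, from log2 17.88 to 18.06 for 7 genes. This sum could move little, because Ttr, Apoa1, Fga and Serpina1c had mean levels of 15.93, 15.94, 15.81 and 15.67, near the top of the scale. Of the 7 genes, 6 were lower in PV than in NPV, 2 of them within all 3 numbers, with a median of -0.11 (0 passed). Of the 9 periportal marker genes, 9 were lower in PV than in NPV within all 3 numbers, and 0 passed the adjusted test with or without the block. Of the 8 stellate cell and fibroblast genes, 7 were higher in PV (0 passed), with a summed level of 13.53 to 14.19 in PV, 13.51 to 13.59 in NPV and 13.59 to 13.86 in SC. Among bile duct genes the defining markers Krt19, Krt7, Epcam and Cftr were detected on 0 arrays, and the summed level of the 3 that were kept of 7 ran from 9.89 to 11.48 in PV and from 10.74 to 11.53 in NPV. Vwf, an endothelial gene, rose in PV with the block (2.11 over NPV, limma adjusted p = 0.0467), and endothelial genes (6 of 7 kept) summed to 12.81 to 13.18 in PV and 12.62 to 13.21 in NPV, Kupffer cell genes (5 of 6) to 11.53 to 12.06 and 10.70 to 12.26, and red blood cell genes (6 of 6) to 16.08 to 16.80 and 16.10 to 16.97. The part that other cell types played in the values below was not tested.

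Samples with the same number varied together. Arrays numbered 3 correlated at 0.990 to 0.993 with each other and at 0.939 to 0.955 with arrays numbered 1 or 2, whichever the kind of sample, and the latter correlated at 0.980 to 0.991 among themselves. Each comparison is therefore given in 2 ways, as group means over all arrays and with the number as a block, which sets each sample against the others of its number (the replicate block).

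PV against NPV asked whether the pathway's genes differ between the glutamine synthetase subcompartment and zones 1+2 of the acinus. Of the 14 probes, 13 were lower in PV, and by the brightest probe all 10 genes were, with a median difference of -0.20 on the log2 scale against -0.0045 for all 19425 probes tested. This count depended on the scaling: with arrays scaled to a common median in place of quantile normalization, the median of all probes moved to 0.28, 5 of the 14 probes (both of Pck1, both of Sds and Fbp1) were below 0 and 11 were below that median. Within all 3 numbers 7 of the 14 probes were lower in PV, where 17.7% of all probes were. The groups did not overlap for 2 of the 14 probes, where 3.05% of all probes lay lower in PV in the same way, and both were probes of Sds. No member passed the adjusted test (0 of 14, against 0.0103% of all probes; with the block 0 of 14, against 0.329%). At an unadjusted p under 0.05 limma gave 2 of 14 (2.1% of all probes), and 5 of 14 with the block (9.15% of all probes). The 5 were both probes of Pck1, both of Sds and Fbp1.

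Sds, the enzyme that turns serine into pyruvate, had the clearest separation. Its brighter probe read 11.17, 11.57 and 11.42 in PV, 12.18, 11.74 and 11.86 in NPV, and 11.99, 11.38 and 11.41 in SC. Every PV array lay below every NPV array, and SC overlapped both. The difference between PV and NPV was -0.54 (SE 0.22, 1.46-fold lower, limma unadjusted p = 0.0360, adjusted p = 1.00). Within numbers 1, 2 and 3 it was -1.0, -0.17 and -0.45, so number 1 carried the largest part. With the block and without the PV array of number 1, the difference was -0.27. The dimmer probe read 10.59, 10.81 and 10.79 in PV, 11.50, 11.13 and 11.36 in NPV, and 11.38, 10.97 and 10.79 in SC. It gave the same order, with a difference of -0.60 between PV and NPV (SE 0.19, 1.52-fold lower, limma unadjusted p = 0.0132, adjusted p = 1.00). For either probe an exact two-sided permutation test of 3 arrays against 3 gave p = 0.1, the smallest this design allows. That value follows from the lack of overlap, and the test does not pair arrays by number. Under median scaling the differences were -0.20 and -0.25.

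Pck1, the enzyme usually taken as the pathway's control point, was lower in PV than in NPV within every number, on both probes. The brighter probe read 12.28, 12.14 and 10.32 in PV, 12.92, 12.56 and 11.20 in NPV, and 12.44, 12.39 and 10.57 in SC. The groups overlapped, because the array numbered 3 was the lowest of its group each time and lay further from the others than the groups lay from each other. The mean difference of -0.65 had an SE of 0.70 without the block (limma adjusted p = 1.00) and of 0.13 with it (unadjusted p = 0.000898, adjusted p = 0.143). Within numbers 1, 2 and 3 it was -0.64, -0.43 and -0.88. The dimmer probe read 11.62, 12.19 and 9.78 in PV, 12.28, 12.39 and 10.60 in NPV, and 11.55, 12.08 and 10.16 in SC. Its difference between PV and NPV was -0.56 (SE 0.75, or 0.15 with the block, limma adjusted p = 1.00 and 0.292). In 1 setting a member passed the adjusted test: on the authors' processed table with the block, the brighter Pck1 probe fell by 0.64 in PV (limma adjusted p = 0.0132), while its adjusted p over the other settings ran from 0.136 to 1.00. Leaving out the PV array of number 3 without the block brought the difference to -0.020, and leaving out the NPV array of number 3 brought it to -1.16; with the block these values were -0.58 and -0.54.

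**Figure D1:**
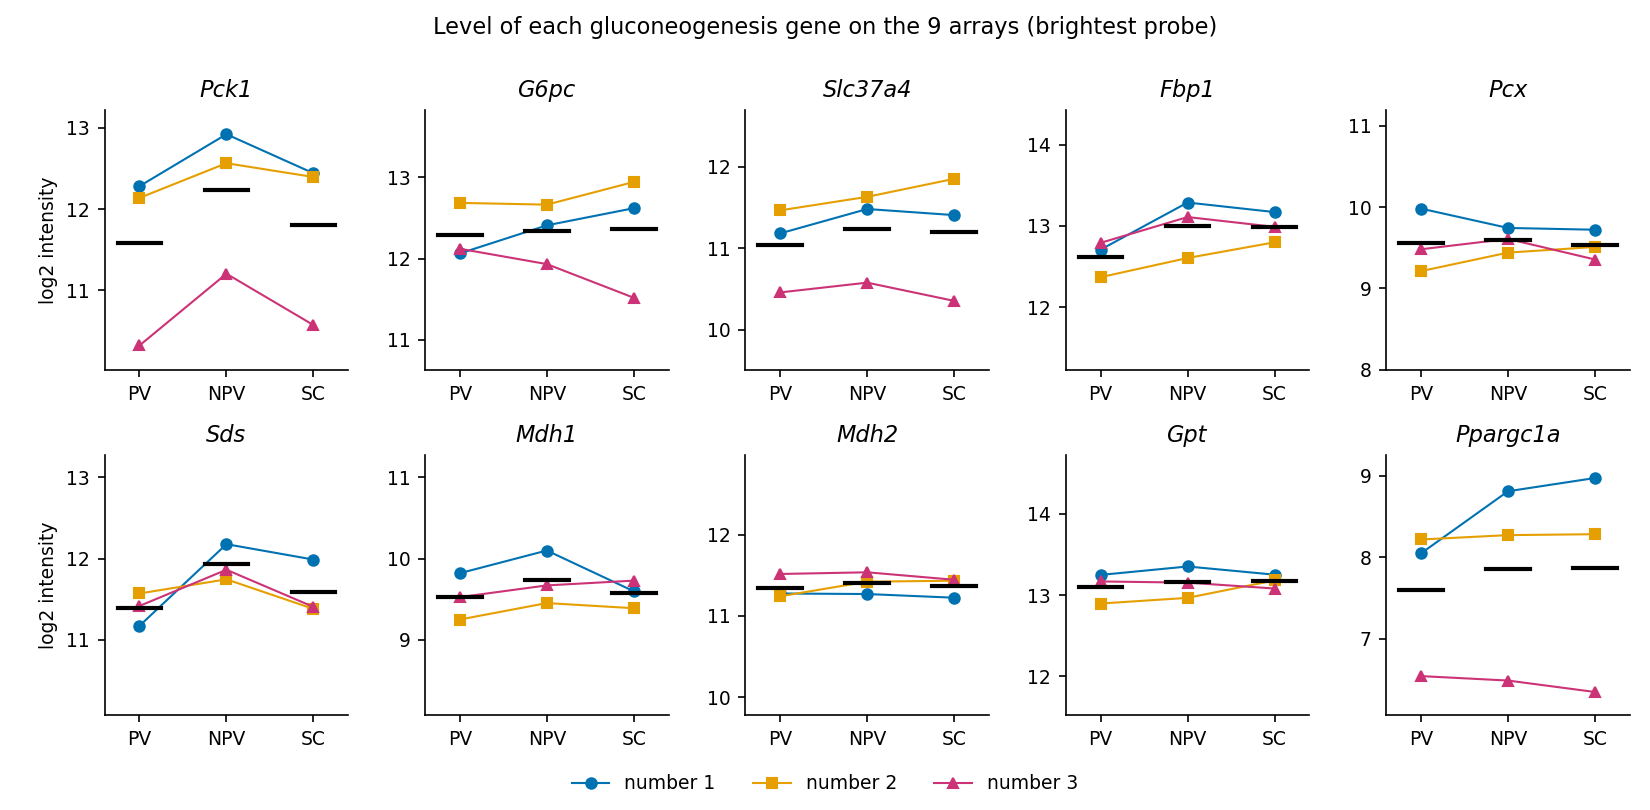
Level of the brightest probe of each gene on the 9 arrays (y axis, log2 intensity; x axis, kind of sample; every panel spans the same number of log2 units). Lines join samples of the same number, and black bars are group means of 3 arrays. Pck1 and Ppargc1a on arrays numbered 3 lie below all arrays numbered 1 and 2, while for Sds the 3 PV arrays lie below the 3 NPV arrays.

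For the remaining steps towards phosphoenolpyruvate no probe separated PV from NPV. The detected Pcx probe read 9.98, 9.21 and 9.48 in PV, 9.74, 9.44 and 9.61 in NPV and 9.72, 9.51 and 9.36 in SC, and its difference between PV and NPV was -0.039 (SE 0.22, interval -0.54 to 0.46). Mdh2 read 11.28, 11.24 and 11.52 in PV, 11.27, 11.42 and 11.54 in NPV and 11.22, 11.43 and 11.45 in SC. Its difference was -0.065 (SE 0.16, 95% interval -0.42 to 0.29), the narrowest interval of all 14 probes. The brightest Mdh1 probe read 9.82, 9.25 and 9.53 in PV, 10.10, 9.45 and 9.67 in NPV and 9.60, 9.39 and 9.73 in SC. It was lower in PV than in NPV within all 3 numbers, by -0.28, -0.20 and -0.14, with an interval of -0.71 to 0.30 for the mean difference (limma adjusted p = 1.00, or 0.712 with the block), and turned to 0.14 under median scaling. The 3 Mdh1 probes did not share a direction between PV and NPV, with differences of -0.21, 0.093 and -0.023 (SE 0.22, 0.21 and 0.36).

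Of the later steps, Fbp1 was lower in PV within every number. It read 12.71, 12.37 and 12.79 in PV, 13.29, 12.61 and 13.11 in NPV and 13.17, 12.80 and 12.99 in SC. PV overlapped NPV through the NPV array of number 2, and the difference was -0.38 (SE 0.22; limma adjusted p = 1.00, or 0.393 with the block, where the unadjusted p was 0.0163). Within numbers 1, 2 and 3 it was -0.58, -0.24 and -0.32. Under median scaling it shrank to -0.080. G6pc, which releases glucose, read 12.06, 12.68 and 12.12 in PV, 12.41, 12.66 and 11.93 in NPV and 12.62, 12.94 and 11.52 in SC. The groups overlapped fully, and the difference between PV and NPV was -0.045 (SE 0.37, interval -0.90 to 0.81). Slc37a4, its partner transporter, read 11.18, 11.46 and 10.46 in PV, 11.48, 11.63 and 10.58 in NPV and 11.41, 11.85 and 10.35 in SC. It was lower in PV than in NPV within all 3 numbers, by -0.30, -0.17 and -0.12, with a mean difference of -0.20 (SE 0.44, or 0.13 with the block; limma adjusted p = 1.00 and 0.718), and this turned to 0.16 under median scaling.

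Gpt was among the steadiest of the genes and Ppargc1a the most variable. Gpt read 13.25, 12.90 and 13.17 in PV, 13.35, 12.96 and 13.15 in NPV and 13.25, 13.18 and 13.08 in SC, with a difference of -0.053 between PV and NPV (SE 0.17, interval -0.43 to 0.33). Ppargc1a read 8.05, 8.22 and 6.54 in PV, 8.81, 8.27 and 6.49 in NPV and 8.97, 8.28 and 6.34 in SC. Its difference of -0.25 (SE 0.81) came mostly from number 1, with -0.76, -0.054 and 0.055 within the 3 numbers. Differences of G6pc, Pcx, Mdh2, Gpt and Ppargc1a between PV and NPV changed sign under median scaling.

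**Figure D2:**
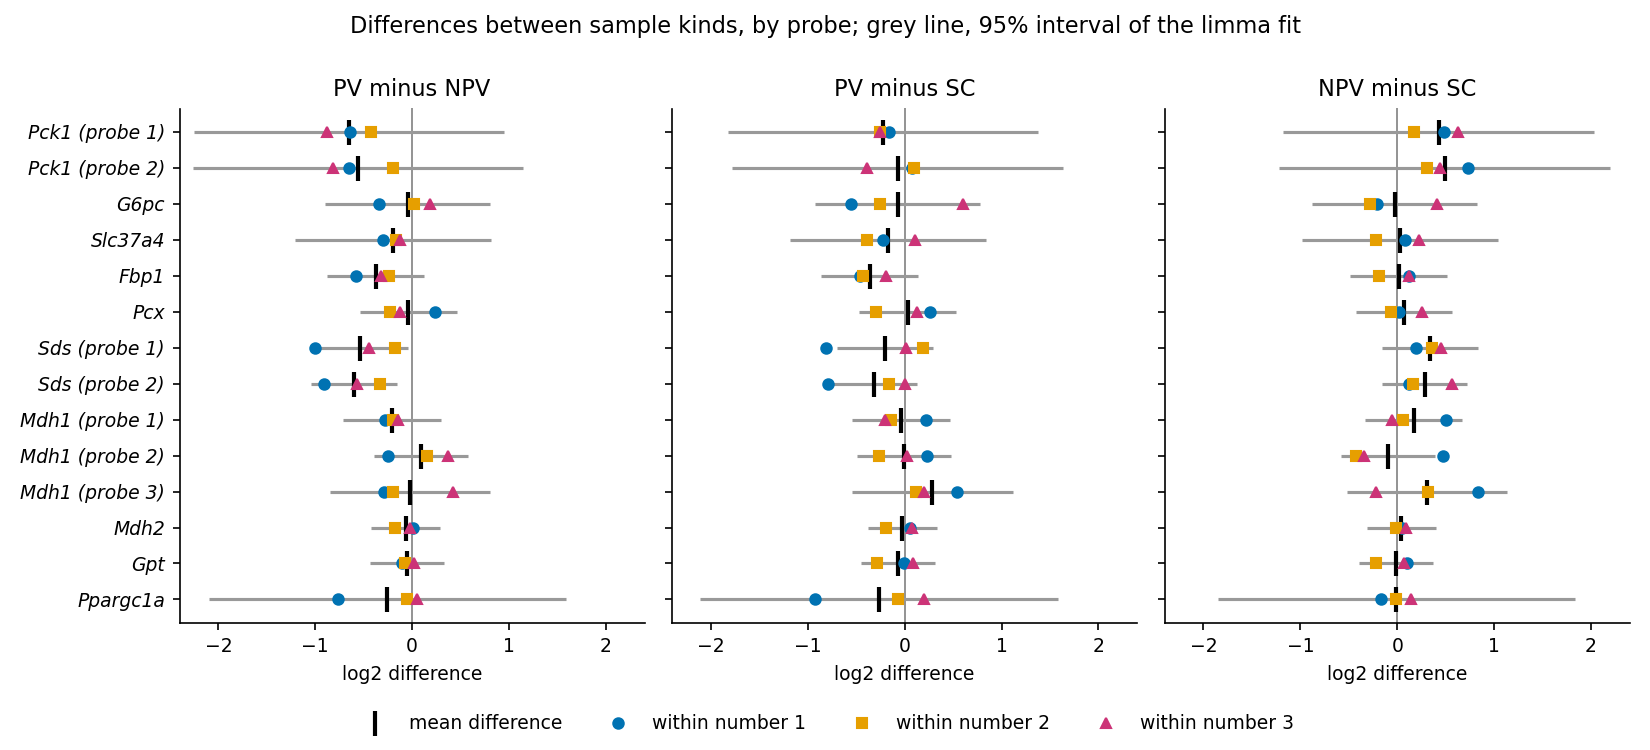
Log2 difference between the kinds of sample for the 14 detected probes (x axis), with the difference within each number as coloured points and the mean as a black tick; the grey line is the 95% interval of the limma fit without the block. Most PV minus NPV means lie left of 0 after quantile normalization (13 of 14, but 5 of 14 after median scaling), and the intervals of Pck1 and Ppargc1a are the widest.

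PV against SC set the glutamine synthetase subcompartment beside the undissected tissue, which contains it. Of the 14 probes 12 were lower in PV, with a median of -0.071 against -0.0074 for all probes; under median scaling 5 of 14 were lower and the median of all probes moved to 0.15. Lower within all 3 numbers were 2 of 14 (12.8% of all probes), the brighter Pck1 probe and Fbp1. Fbp1 alone had no overlap (1 of 14, against 1.97% of all probes), at 12.37 to 12.79 in PV and 12.80 to 13.17 in SC. The gap between the groups was narrow, and the difference was -0.36 (SE 0.22, 1.29-fold lower, exact two-sided permutation p = 0.1). This permutation p follows from the lack of overlap and adds nothing to it. By limma 0 of 14 passed the adjusted test (0% of all probes), and 0 of 14 had an unadjusted p under 0.05 (1.12% of all probes). With the block 0 of 14 passed (0.0824% of all probes). Fbp1 was then the 1 probe of 14 at an unadjusted p under 0.05 (6.19% of all probes), with a limma unadjusted p of 0.0197 and an adjusted p of 0.757. The Sds differences were -0.20 and -0.32, and number 1 (-0.81 and -0.79) stood apart from number 2 (0.19 and -0.16) and number 3 (0.011 and 0.0016).

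NPV against SC set zones 1+2 beside the undissected tissue. Of the 14 probes 10 were higher in NPV, with a median of 0.055 against -0.0024 for all probes; under median scaling, where the median of all probes moved to -0.13, 9 of 14 were lower in NPV. Higher within all 3 numbers were 4 of 14 (13.3% of all probes), namely both probes of Pck1 and both of Sds. The Pck1 differences were 0.43 (SE 0.70) and 0.49 (SE 0.75), with SEs of 0.13 and 0.15 under the block, and those of Sds were 0.34 (SE 0.22) and 0.28 (SE 0.19). By limma 0 of 14 passed the adjusted test (0% of all probes), and 0 of 14 had an unadjusted p under 0.05 (1.59% of all probes). With the block 0 of 14 passed (0% of all probes), and both Pck1 probes had an unadjusted p under 0.05 (0.0107 and 0.0110, adjusted p = 0.656 for both; 6.74% of all probes). The 3 comparisons share their samples, so for both Pck1 probes and both Sds probes the order NPV, SC, PV of the means repeats what the pairs already gave. Neighbours in this order overlapped for all 4 probes. Of the other probes, Slc37a4, Fbp1, Mdh2 and the brightest Mdh1 probe had the same order of means, and G6pc, Gpt and Ppargc1a were highest in SC and lowest in PV.

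The arrays numbered 3 stood lower than those numbered 1 and 2 for a subset of the genes, in every kind of sample. This was seen in the values first and is a description with no test. The mean of the 3 differences (number 3 minus the mean of numbers 1 and 2 of the same kind) was -1.98 for Ppargc1a, with -1.59 in PV, -2.06 in NPV and -2.28 in SC. It was -1.76 and -1.84 for the probes of Pck1 and -1.04 for Slc37a4. For G6pc it was -0.71, with -0.25 in PV, -0.60 in NPV and -1.26 in SC, and the PV array of number 3 (12.12) lay above that of number 1 (12.06). Of all probes tested, 2.33% lay as far from 0 as Ppargc1a, 3.06% and 2.73% as far as the Pck1 probes, 9.89% as far as Slc37a4 and 19.8% as far as G6pc. Fbp1, Pcx, both Sds probes, the brighter pair of Mdh1 probes, Mdh2 and Gpt (8 of 14 probes) lay between -0.15 and 0.19, and the dimmest Mdh1 probe lay at -0.78. Over all probes the median was 0.021 and the middle 90% ran from -1.07 to 1.00, so that Slc37a4, the dimmest Mdh1 probe and G6pc lay inside it. The direction held with median scaling, without background correction, with an offset of 50 and in the authors' processed table, where Pck1 lay between -1.59 and -1.73 and Ppargc1a between -1.45 and -1.71. Some summed levels of other cell types also moved with the same arrays. For numbers 1, 2 and 3 in turn the summed level of Kupffer cell genes was 12.06, 11.76 and 11.53 in PV, 12.26, 12.25 and 10.70 in NPV, and 12.13, 12.30 and 10.93 in SC. That of endothelial genes was 13.18, 13.03 and 12.81 in PV, 13.21, 13.21 and 12.62 in NPV, and 13.22, 13.34 and 12.93 in SC. Red blood cell genes summed to 16.80, 16.58 and 16.08 in PV, 16.97, 16.55 and 16.10 in NPV, and 17.11, 16.81 and 16.54 in SC. These 3 sums, and by a smaller margin that of the hepatocyte genes (17.88 to 17.95 on number 3, 17.94 to 18.06 on the others), were lowest on number 3 in every kind of sample. Stellate cell and bile duct sums were lowest on number 3 in PV and SC but not in NPV. The sum of the 9 periportal genes was highest on number 3 in every kind of sample, at 16.77 in PV, 17.24 in NPV and 16.97 in SC. For numbers 1, 2 and 3 the perivenous sum was 17.22, 17.03 and 17.14 in PV and 16.61, 16.68 and 16.66 in NPV. In SC it was 16.85, 16.79 and 16.79. Among single markers, Lyve1 (endothelium) lay at -3.06, Col3a1 (fibroblasts) at -2.61, Lrat (stellate cells) at -2.20 and Adgre1 (macrophages, brighter probe) at -1.49, while Hbb-b2 (red blood cells) lay at 2.89 and Marco (Kupffer cells) at 0.57. Other genes of the endothelial and stellate lists lay nearer to 0 or above it, with Stab2 at -0.041, Clec4g at -0.29, Dcn (brightest probe) at -0.15 and Pdgfrb at 0.82. Among hepatocyte markers Ctsc (periportal, brightest probe) lay at -5.53, Ass1 (periportal) at 0.56 and Tbx3 (perivenous, brighter probe) at 1.74. These markers were singled out after their values were seen, and their part in the result was not tested. What the number stands for is not given.

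**Figure D3:**
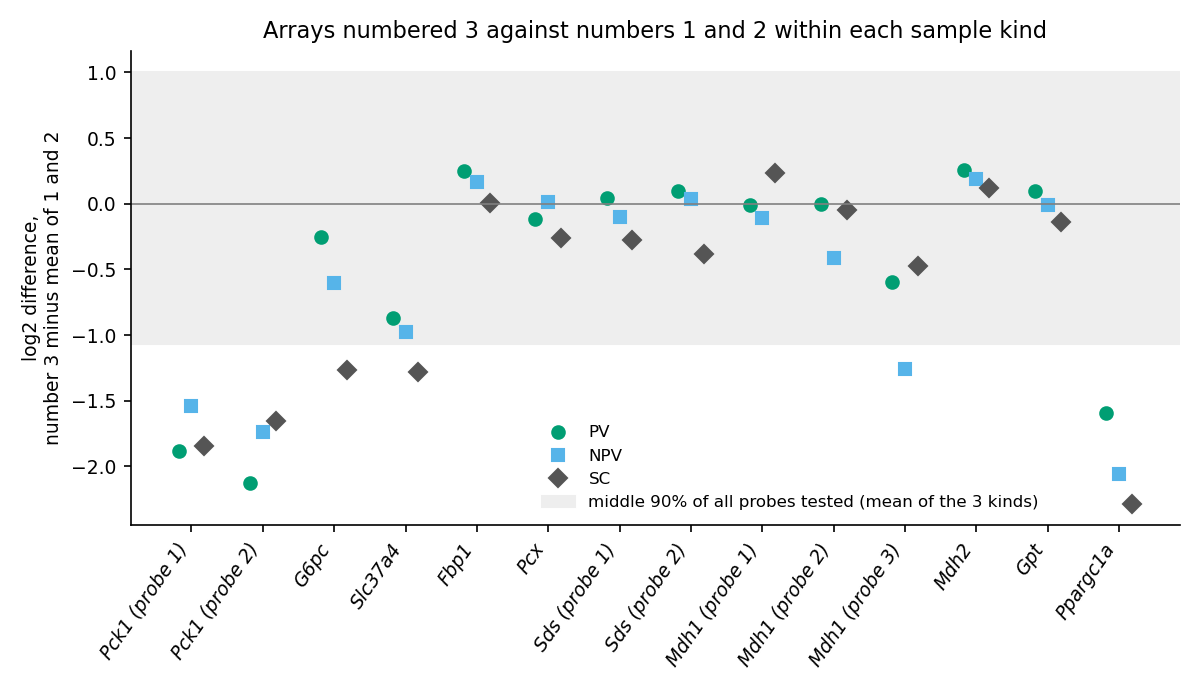
Difference between the array numbered 3 and the mean of the arrays numbered 1 and 2 (y axis, log2) for each detected probe (x axis), by kind of sample. The grey band holds the middle 90% of all probes tested; the Pck1 and Ppargc1a points lie below it in all 3 kinds of sample, and Fbp1, Pcx, Sds, Mdh2 and Gpt lie inside it.

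The wider pathway was read from lists of genes around the 10. In each list and each of the 3 comparisons, 0 genes rose and 0 fell by the adjusted limma test, with or without the block. For other genes of carbon entry, 20 of 23 were kept (Pck2, Slc16a1 and Slc25a22 were not), 14 of them lower in PV than in NPV with a median of -0.070. The smallest p-values belonged to Gls2, the liver glutaminase and also one of the periportal markers above, and to Sdsl, a relative of Sds. Gls2 read 12.98, 13.30 and 13.15 in PV and 13.84, 13.52 and 13.79 in NPV, and did not overlap. Its difference was -0.57 (SE 0.17, limma unadjusted p = 0.00772, adjusted p = 1.00). Sdsl read 8.56, 8.94 and 8.80 in PV and 9.30, 9.08 and 9.66 in NPV, also without overlap, with a difference of -0.58 (SE 0.19, limma unadjusted p = 0.0138, adjusted p = 1.00). Over all probes 3.05% lay lower in PV without overlap, and this pair was picked for its small p-values, which favours such a gap. Against SC the PV differences of the same pair were -0.27 and -0.35, and NPV differed from SC by 0.30 for Gls2 and by -0.18 for Aqp9, a glycerol channel.

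The steps shared with glycolysis were all kept (7 of 7), and 6 were lower in PV than in NPV, 5 of them within all 3 numbers, with a median of -0.15. The smallest p-values were those of Eno1 (enolase, -0.32, SE 0.24) and Gapdh (-0.20, SE 0.19). NPV exceeded SC by 0.35 for Eno1 and by 0.23 for Pgam1, while Gapdh differed between PV and SC by -0.074. Of the enzymes that run the other way, 4 of 6 were kept, 2 lower and 2 higher in PV than in NPV. Pklr, the liver pyruvate kinase, differed by -0.51 (SE 0.27) and Gckr by -0.18 (SE 0.52). Against SC, Pklr differed by -0.23 in PV and by 0.28 in NPV. Of the relatives of Fbp1 and G6pc, only G6pc3 was kept of 3, at -0.013 between PV and NPV, -0.22 between PV and SC and -0.20 between NPV and SC.

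Of the hormone receptors and transcriptional regulators, 24 of 25 were kept, with 12 higher and 12 lower in PV than in NPV and a median of -0.0030. The smallest p-values were those of Ppargc1b (-0.38, SE 0.28), the sister coactivator of Ppargc1a, and of Irs2 (-0.29, SE 0.26), an adaptor of the insulin receptor. Nr3c1, the glucocorticoid receptor, and Hnf4a, a hepatocyte transcription factor, each differed by -0.19 between PV and SC. Gcgr, the glucagon receptor, and Insr, the insulin receptor, were lower in NPV than in SC by -0.39 (SE 0.25) and -0.44 (SE 0.30), within all 3 numbers. Of the 24 regulators 3 were lower within all 3 numbers, where 14.4% of all probes were. On arrays numbered 3, 6 of 24 regulators were lower by 1 log2 unit or more and 2 of 24 higher, against 0 lower of the 20 carbon entry genes, 0 of the 7 shared steps and 0 of the 4 opposing enzymes. Over all probes 5.68% were as low, and the 95th percentile was 1.00. Higher by 1 or more were 1 of the 20 carbon entry genes, 1 of the 4 opposing enzymes and 0 of the 7 shared steps. Lpin1, whose product acts as a coactivator in fasted mouse liver, had the largest value, at -3.71. It read 11.33, 11.18 and 7.95 in PV, 11.88, 11.67 and 7.84 in NPV, and 11.55, 11.33 and 7.56 in SC. Crebbp, a coactivator of CREB, lay at -2.29, Cebpb at -1.48, Foxo3 at -1.45, Crem at -1.35 and Creb1 at -1.29. In the other direction Pdk4, a fasting-induced inhibitor of pyruvate dehydrogenase, lay at 2.19, Pde4b at 1.96, Cebpa at 1.37 and Gckr at 1.20. These genes were singled out after their values were seen.

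With the mean of each number taken off, the named genes whose pattern over the 9 arrays was most like that of Pck1 were Znfx1 (Pearson r = 0.977), Pxt1 (0.966) and Tfg (0.965), all above the other probe of Pck1 itself (0.914). For G6pc they were Rnf181 (0.991), Acsl5 (0.988) and Stard4 (0.983). For Sds they were Nup88 (0.988), Id2 (0.980) and Rnf11 (0.977), and the other Sds probe had 0.951. Of the 19425 probes tested, 109, 67 and 134 reached 0.9 or more for the 3 genes, so the named genes were not alone. These counts include the other probe of Pck1 and of Sds. Only 9 points, which share their groups and numbers, enter each value.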

How the data were processed

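RNA of 9 laser-captured or scraped mouse liver samples was measured on Illumina bead arrays. Per the file headers, the deposited scanner table gives each probe's intensity and detection p-value on each array, before any normalization between arrays; the submitters' processing notes name BeadStudio 3. A further deposited table holds the authors' processed intensity values and served only as an alternative, since no source used here says how it was made. From 16819 to 18721 of 45281 probes were detected per array (37.1% to 41.3%).

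Intensities were background-corrected by neqc of limma 3.58.1 (R 4.3.3), which took the negative controls' mean and spread from the deposited detection p-values and added an offset of 16. Quantile normalization and log2 followed. The 19425 probes detected (p under 0.05) on 3 or more of the 9 arrays were fitted together by lmFit and eBayes, with 6 residual degrees of freedom (4 with the block), 3 contrasts, two-sided tests and Benjamini-Hochberg adjustment at 0.05. Groups were taken from the sample titles. The deviations of same-numbered samples from their group means correlated at 0.569 to 0.874 in all 9 pairs of samples and those of other numbers at -0.742 to 0.396, so the numbers pair the samples. All the negative values involved number 3, and deviations from a mean of 3 arrays sum to 0, which pushes them down. Number 1 against number 2 gave 0.328 to 0.396, and the same-numbered pairs of numbers 1 and 2 gave 0.569 to 0.738, a smaller gap. This pairing comes from the data, as the labels do not state it. Nothing ties the samples to separate animals, and the p-values therefore cover only how these samples vary, which may be technical.

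Exact permutation tests used scipy 1.17.1 in Python 3.11.15. Older symbols were matched through RefSeq's gene table, and promoters came from RefSeq. The fit was tested on simulated data with independent noise and planted changes larger than any member difference of the main fit. It therefore does not show how well differences of the members' size would be found. All member probes are described. In the lists around the pathway the 2 genes of smallest p per list and comparison are named, as are the 3 named genes most like Pck1, G6pc and Sds. Some genes these rules name are not reported here. The members and lists were chosen with earlier results of these data known. Alternatives covered the block, normalization, background, offset, source table, filter, probe choice and arrays left out.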

Additional observations from a re-analysis of the deposited data

How the results depend on the processing

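The 14 probes were recomputed under 32 alternatives, which gave 1320 values: 1149 kept their direction and their side of the threshold, 170 changed sign and 1 passed the adjusted test that had not. That one was Pck1 probe 1 between PV and NPV on the authors' processed table with the replicate block (1 member called in place of 0, limma adjusted p = 0.0132). In the other settings 0 member probes were called in any comparison, and the block alone changed no other call of a member: with it the members called numbered 0 in all 3 comparisons. Over all probes the block moved the count from 2 to 64 for PV against NPV (2 shared), from 0 to 16 for PV against SC and from 0 to 0 for NPV against SC; limma's unadjusted p was under 0.05 for 309 probes there, and for 1310 with the block. For PV against NPV the count of all probes called was 11 with median scaling, 5 without background correction, 5 on the authors' table, 30 without number 3, and 3 with an offset of 50, with detection on all 9 arrays or with 1 probe per symbol. With the block it was 440, 129 and 50 under median scaling, the authors' table and without number 3, 31 without the filter and 40 with 1 probe per symbol. For PV against SC with the block it was 73 with median scaling, 44 on the authors' table, 11 with 1 probe per symbol, 1 without the filter and 0 without number 3, and for NPV against SC 3 with median scaling and 3 on the authors' table. Leaving out 1 array moved PV against NPV to between 0 and 6 (21 and 73 with the block) and PV against SC with the block to between 0 and 35.

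The number of probes lower in PV than in NPV, 13 of 14, became 5 under median scaling, with or without the block, and ran from 8 (without the PV array of number 3) to 14 when 1 array at a time was left out. Median scaling, with or without the block, turned the sign of PV minus NPV to 0.25 for G6pc, 0.16 for Slc37a4, 0.31 for Pcx, 0.32 for Mdh1 probe 3, 0.14 for Mdh1 probe 1, 0.28 for Mdh2, 0.22 for Gpt and 0.080 for Ppargc1a. It turned PV minus SC to 0.11 for Pck1 probe 2, 0.079 for G6pc, 0.025 for Slc37a4, 0.13 for Mdh1 probe 1, 0.17 for Mdh1 probe 2, 0.16 for Mdh2 and 0.080 for Gpt, and NPV minus SC to -0.14 for Slc37a4, -0.13 for Fbp1, -0.11 for Pcx, -0.0059 for Mdh1 probe 1 and -0.12 for Mdh2. It also shifted the median of all probes to 0.28, 0.15 and -0.13, and relative to that median 11, 10 and 5 of the 14 probes were lower. Without the arrays numbered 3, with or without the block, PV minus NPV turned to 0.0051 for Pcx and -0.043 for Mdh1 probe 2, PV minus SC to 0.086 for Pck1 probe 2, -0.019 for Pcx and 0.042 for Mdh1 probe 1, and NPV minus SC to -0.073 for Slc37a4, -0.038 for Fbp1, -0.024 for Pcx and 0.024 for Mdh1 probe 2. The cause of these sign changes was not tested; they touched differences that did not pass the test.

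Leaving out 1 array at a time, with and without the block, PV minus NPV ranged from -0.27 to 0.15 for G6pc, -0.15 to 0.051 for Gpt, -0.44 to 0.25 for Mdh1 probe 3, -0.044 to 0.32 for Mdh1 probe 2, -0.15 to 0.0063 for Mdh2, -1.14 to 0.15 for Pck1 probe 2, -0.25 to 0.13 for Pcx, -0.94 to 0.28 for Ppargc1a and -0.52 to 0.094 for Slc37a4. PV minus SC ranged from -0.49 to 0.22 for G6pc, -0.14 to 0.038 for Gpt, -0.19 to 0.10 for Mdh1 probe 1, -0.21 to 0.14 for Mdh1 probe 2, -0.11 to 0.048 for Mdh2, -0.84 to 0.41 for Pck1 probe 1, -0.62 to 0.64 for Pck1 probe 2, -0.18 to 0.20 for Pcx, -1.03 to 0.29 for Ppargc1a, -0.39 to 0.064 for Sds probe 1 and -0.60 to 0.16 for Slc37a4. NPV minus SC ranged from -0.13 to 0.21 for Fbp1, -0.45 to 0.27 for G6pc, -0.11 to 0.091 for Gpt, -0.011 to 0.31 for Mdh1 probe 1, -0.33 to 0.052 for Mdh1 probe 2, -0.030 to 0.11 for Mdh2, -0.19 to 0.94 for Pck1 probe 1, -0.064 to 1.07 for Pck1 probe 2, -0.018 to 0.18 for Pcx, -0.77 to 0.67 for Ppargc1a and -0.40 to 0.35 for Slc37a4. Where a group was left with 2 arrays the spread was shared over all groups. Number 3 minus numbers 1 and 2 moved by more than the spread for Ppargc1a alone among the 4 genes tried (Pck1, G6pc, Slc37a4, Ppargc1a), to -1.45 both without background correction and on the authors' table. The values for number 3 and the count of probes lower in PV were added after seeing the data. The chip as a block was not run because the headers name no chip. Precision is limited by 3 arrays a group, and Ppargc1a, at 6.34 to 6.54 on arrays numbered 3, lay nearest to the background of the 14 probes.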
